A study of Mus musculus with 57 samples.

Results

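Metallothioneins and zinc transporters were followed through the hearts of mice given doxorubicin (Doxo), with or without nicotinamide mononucleotide (NMN). The 8 genes were the metallothioneins Mt1, Mt2 and Mt3, the zinc exporters Slc30a1 and Slc30a3, and the zinc importers Slc39a8, Slc39a10 and Slc39a14. They were taken by gene symbol, and all 8 were found in both count tables, among 25416 genes in the acute study and 54658 genes in the chronic study. The set was selected on the group levels of these same hearts, that is, on the counts of these genes in Ctrl, Doxo and Doxo-NMN hearts of both studies. Their differences between groups are therefore given as a description. How many of them met the study's call rule is stated beside the share of all genes that did, and is not evidence for them. Of the 8 genes, 7 had enough counts to be fitted in the acute study (all except Slc30a3) and 8 in the chronic study.

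Doxo is an anthracycline used against cancer that is toxic to the heart, and NMN is a precursor of NAD+. All mice were young adult wild-type males on the C57BL6/J background, and the chronic mice were a few weeks older than the acute ones when treatment began. In the acute study, 14 Ctrl mice received saline, 13 Doxo mice received 1 i.p. injection of 20 mg/kg Doxo, and 13 Doxo-NMN mice received the same injection together with 180 mg/kg/day NMN i.p., begun 5 days before Doxo. Their hearts were taken on day 5, from the mice still alive then. In the chronic study, 5 Ctrl mice received PBS, 6 Doxo mice received 5 injections of 4 mg/kg Doxo (20 mg/kg in total), and 6 Doxo-NMN mice received the same injections and 500 mg/kg/day NMN in the drinking water, begun 5 days before the first of them. These hearts were taken on day 60, again from the mice still alive then. The study reports lower survival with Doxo alone than with Doxo and NMN, a difference that was significant only in the acute study. No group received NMN alone, and both arms with Doxo carry the same Doxo dose. The acute and chronic mice came from different suppliers and were sequenced at different sites, so levels are compared within a study only. By the study's methods, the hearts sequenced in each study came from a single cohort of mice. Each library is 1 heart. In such bulk RNA, fewer cells of a type and less RNA per cell cannot be told apart.

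Metallothioneins are small proteins rich in cysteine that bind zinc and copper in the cytosol and can react with oxidants. Transporters of the Slc30a (ZnT) family move zinc out of the cytosol, across the plasma membrane or into vesicles, and those of the Slc39a (ZIP) family move it into the cytosol. When free zinc rises, the transcription factor MTF-1 (gene Mtf1) binds metal response elements in the promoters of Mt1, Mt2 and Slc30a1. Mt1 and Mt2 are also well known targets of glucocorticoids, oxidative stress and inflammatory cytokines, and metallothionein has long been studied in the heart for its relation to anthracycline damage.

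The promoters of Mt1, Mt2 and Slc30a1 are shown first. The results turn on Mt1 and Mt2, and Slc30a1 is a further known target of MTF-1. Each run is the 250 bases before the RefSeq gene start (mouse assembly GRCm38.p6, plus strand), which lie at chr8:94178839-94179088 for Mt1, chr8:94172368-94172617 for Mt2 and chr1:191906531-191906780 for Slc30a1. Capitals mark matches to a metal response element (TGCACNC or TGCGCNC, on either strand).
Mt1: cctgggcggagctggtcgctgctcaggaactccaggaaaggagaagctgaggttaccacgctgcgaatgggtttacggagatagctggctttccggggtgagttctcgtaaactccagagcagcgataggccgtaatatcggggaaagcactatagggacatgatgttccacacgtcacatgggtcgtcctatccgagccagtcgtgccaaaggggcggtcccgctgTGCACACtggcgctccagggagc
Mt2: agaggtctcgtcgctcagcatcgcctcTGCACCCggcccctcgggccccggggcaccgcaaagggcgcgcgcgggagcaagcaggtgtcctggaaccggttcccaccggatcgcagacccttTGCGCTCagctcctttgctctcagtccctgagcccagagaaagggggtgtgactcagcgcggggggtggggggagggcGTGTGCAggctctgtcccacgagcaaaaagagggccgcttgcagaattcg
Slc30a1: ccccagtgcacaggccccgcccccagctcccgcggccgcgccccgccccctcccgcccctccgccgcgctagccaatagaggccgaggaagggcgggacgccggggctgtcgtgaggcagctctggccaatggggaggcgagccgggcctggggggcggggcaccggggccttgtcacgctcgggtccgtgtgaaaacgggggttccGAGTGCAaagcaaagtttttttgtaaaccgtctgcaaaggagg
The Mt2 window held 3 matches, which begin 223, 128 and 50 bases before the start. The Mt1 window held 1 match, 23 bases before the start, and the Slc30a1 window held 1 match, 43 bases before it. The annotation places the starts of 2 shorter Mt1 transcripts 129 and 159 bases after the gene start, inside what is untranslated sequence of the longest transcript. The 250 bases before either of these inner starts held 5 matches, 4 of them downstream of the printed Mt1 run. Of the other genes with a promoter entry, 1 of 2 windows of Slc30a3 and 1 of 2 windows of Slc39a8 held 1 match, and those of Mt3 and Slc39a10 held none. Among 32851 RefSeq promoter windows of 250 bases, 21.4% held at least 1 match and 1.26% held 3 or more.

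Motifs for other known inducers were searched in the same windows, none of which overlapped a metal response element. A glucocorticoid response element (GNACA and TGTNC with 3 bases between) was found in the Mt1 window, 94 bases before the start, and in 0.387% of all windows. An antioxidant response element (TGACNNNGC or TGAGNNNGC) was found once for Mt2 and at 2 places for Slc30a1, and once each for Mt3, Slc39a8 and Slc39a10, against 23.01% of all windows with at least 1. A STAT site (TTCNNNGAA) was found in none of these 3 windows, in 1 of 2 windows of Slc39a10 and in 7.02% of all windows. A match is a description of these letters, not evidence of binding.

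Mt1, Mt2 and Mt3 lie next to each other on chromosome 8 (GRCm38, plus strand), with Mt3 at 94152607 to 94154146, Mt2 at 94172664 to 94173568 and Mt1 at 94179082 to 94180327. The transporters are spread over 4 chromosomes, with Slc30a1 and Slc39a10 on chromosome 1, Slc39a8 on chromosome 3, Slc30a3 on chromosome 5 and Slc39a14 on chromosome 14. Levels are given in CPM, the counts of a gene scaled to the total counts of its library after TMM normalization. Total counts ranged from 32409622 to 52102850 per acute heart and from 17769886 to 23862287 per chronic heart, so that 3 counts, taken as the detection limit, amount to 0.0550 to 0.105 CPM and 0.124 to 0.172 CPM (counting error only).

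Several hearts stood apart before any group was compared. Of the 40 acute hearts, 17 held over 100 CPM (before TMM) of the atrial light chain Myl4 (8 Ctrl, 5 Doxo and 4 Doxo-NMN) and 23 held less. The 5 atrial markers (Myl4, Myl7, Sln, Nppa and Bmp10), all detected in every group, summed to 44.4 to 5555 CPM in acute Ctrl, 32.9 to 1838 in Doxo and 27.3 to 3875 in Doxo-NMN hearts. One acute Doxo heart, replicate 6, had Mt1 and Mt2 within the Ctrl range. Other gene lists described below were also near the Ctrl level in it. STAT3 acute phase genes summed to 271 CPM (250 to 373 in Ctrl) and neutrophil genes to 2.84 CPM (1.59 to 5.35). NRF2 target genes lay just above the Ctrl range (598 against 546 to 595 CPM) and macrophage genes just below it (180 against 182 to 267 CPM). Red cell markers (Hba-a1, Hba-a2, Hbb-bs, Hbb-bt and Alas2) summed to 437 to 4311 CPM in acute Ctrl hearts, 1.19 to 338 CPM in Doxo and 0.209 to 2.81 CPM in Doxo-NMN hearts. Cardiomyocyte markers were abundant in every heart, at 52132 to 65914 summed CPM in acute Ctrl and 25414 to 68374 in acute Doxo hearts. The part of these differences in the results below was not tested, except where values within the atrial classes are given.

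Compared per kilobase of exon, Mt1 was by far the most abundant of the 8 genes. In acute Ctrl hearts its level was 87.9 ± 13.2 CPM per kb (SD, n = 14). Slc39a14 (7.58 ± 0.832), Slc30a1 (4.58 ± 0.512) and Slc39a10 (2.19 ± 0.250) followed on the same scale, with ranges that did not overlap. Mt3 (2.003 ± 1.58), Mt2 (1.02 ± 0.399) and Slc39a8 (0.858 ± 0.754) came next, and their ranges overlapped each other and that of Slc39a10, while Mt3 also reached into that of Slc30a1. Slc30a3 was lowest at 0.0279 ± 0.0264 CPM per kb and overlapped none of them. The order of the group means was the same in the chronic Ctrl hearts (n = 5), from Mt1 at 65.6 ± 18.4 down to Slc30a3 at 0.0781 ± 0.0262 CPM per kb. There, the neighbours whose ranges overlapped were Slc39a14 and Slc30a1, Mt3 and Mt2, Mt2 and Slc39a8, and Slc39a8 and Slc30a3.

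The level of Mt2 is uncertain. The median ratio of Mt1 to Mt2 counts within a heart was 186 in acute Ctrl, 79.2 in Doxo and 182 in Doxo-NMN hearts. In the annotation, 432 of its 588 exon bases (73.5%) are also covered by exons of Gm45774, a gene on the opposite strand, and reads that overlap 2 genes are commonly left out when strand is not used. The strand setting is not given in the sources used here. Changes of Mt2 are compared only between hearts counted in the same way. They may rest on the unshared part of the gene or include reads of Gm45774, which was not tested. Slc30a1 shares 8.92% of its exon bases with 1700034H15Rik on the opposite strand, and no other gene of the 8 shares exon bases with another gene.

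In the acute study, Mt1 and Mt2 were higher in nearly all Doxo hearts than in any Ctrl heart. Mt1, the metallothionein with the most counts in these hearts, ranged from 88.0 to 148 CPM (median 104) in Ctrl hearts. In Doxo hearts it ranged from 99.1 to 2031 CPM (median 821), and 12 of 13 hearts lay above the highest Ctrl heart. The group means were 109.5 ± 16.4 CPM (SD, n = 14) and 799 ± 634 CPM (SD, n = 13), a log2 fold change of 2.87 (SE 0.30), or 7.29-fold. The Doxo hearts were spread widely, with 6 hearts between 99.1 and 363 CPM and 7 between 821 and 2031 CPM, and none between. Mt2 ranged from 0.275 to 1.16 CPM (median 0.563) in Ctrl and from 0.698 to 36.0 CPM (median 11.4) in Doxo hearts. Its means were 0.599 ± 0.235 CPM (SD, n = 14) and 11.9 ± 11.05 CPM (SD, n = 13), a log2 fold change of 4.30 (SE 0.43), and again 12 of 13 Doxo hearts exceeded all Ctrl hearts. The remaining Doxo heart was replicate 6 for both genes, with 99.1 CPM of Mt1 and 0.698 CPM of Mt2. Without it the log2 fold changes were 2.97 for Mt1 and 4.41 for Mt2.

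With NMN, both genes lay between the Ctrl and the Doxo level. Mt1 ranged from 144 to 358 CPM (median 179) in Doxo-NMN hearts, all within the range of the Doxo hearts and with 11 of 13 above the highest Ctrl heart. Its mean was 201 ± 64.7 CPM (SD, n = 13), a log2 fold change of −1.99 (SE 0.30) vs. Doxo and 0.88 (SE 0.29) vs. Ctrl. Mt2 ranged from 0.606 to 3.70 CPM (median 1.16), with 7 of 13 Doxo-NMN hearts above the highest Ctrl heart and 3 below the lowest Doxo heart. Its log2 fold change was −3.14 (SE 0.42) vs. Doxo and 1.15 (SE 0.42) vs. Ctrl. No Doxo-NMN heart reached the 821 CPM of Mt1 at which the upper 7 Doxo hearts began, and the highest had 358 CPM. The Doxo hearts are shared by Doxo vs. Ctrl and Doxo-NMN vs. Doxo, so a high Doxo level moves both.

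**Figure D1:**
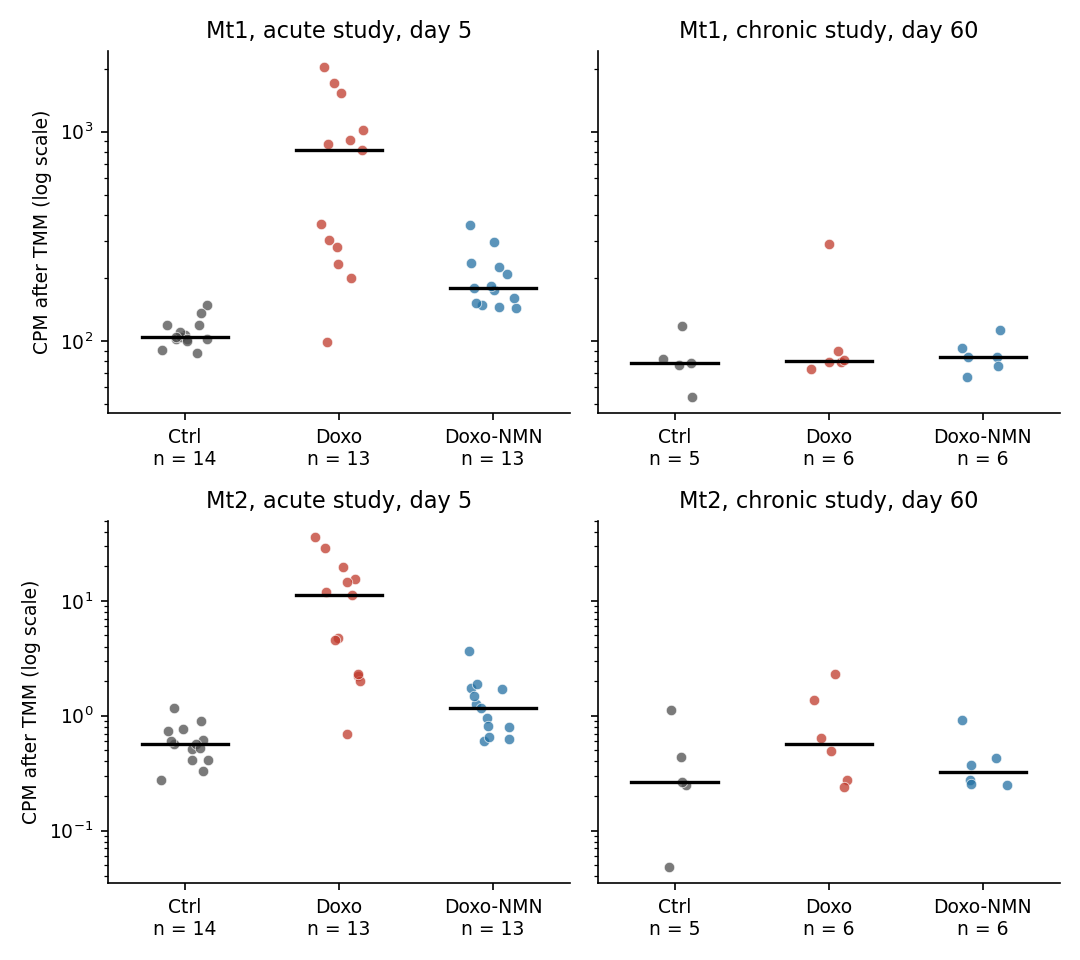
Mt1 (top) and Mt2 (bottom) in CPM on a log axis, 1 point per heart, in acute (left) and chronic (right) hearts, with black lines at the group medians. In the acute study 12 of 13 Doxo hearts lie above all Ctrl hearts for both genes, while 1 of 6 chronic Doxo hearts stands far above the others for Mt1.

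Slc39a14 (ZIP14), an importer of zinc, iron and manganese known to be induced by interleukin 6 in the liver, was the only one of the transporters fitted that met the call rule for Doxo vs. Ctrl in acute hearts. It ranged from 68.0 to 93.9 CPM (median 80.3) in Ctrl, from 81.1 to 253 CPM (median 112) in Doxo and from 64.8 to 107 CPM (median 84.9) in Doxo-NMN hearts. Of the Doxo hearts, 7 lay above the highest Ctrl heart and 6 within the Ctrl range. The means were 80.0 ± 8.78 CPM (SD, n = 14), 131 ± 52.1 CPM (SD, n = 13) and 87.1 ± 12.3 CPM (SD, n = 13). On the log2 scale, these differed by 0.71 (SE 0.13) for Doxo vs. Ctrl, −0.58 (SE 0.13) for Doxo-NMN vs. Doxo and 0.12 (SE 0.13) for Doxo-NMN vs. Ctrl. Without Doxo replicate 5, its highest heart, the difference from Ctrl was 0.58 and no longer met that rule. The 7 Doxo hearts with the highest Slc39a14 were the same 7 that were highest for Mt1.

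The exporter Slc30a1 (ZnT1), which carries zinc out of the cell, and the importer Slc39a10 (ZIP10) differed little between the acute groups. Slc30a1 ranged from 20.9 to 31.3 CPM (median 23.2) in Ctrl, from 20.1 to 32.2 CPM (median 24.4) in Doxo and from 18.4 to 26.8 CPM (median 23.03) in Doxo-NMN hearts, so that the groups overlapped almost entirely. Its log2 fold change was 0.07 (SE 0.07) for Doxo vs. Ctrl and −0.13 (SE 0.07) for Doxo-NMN vs. Doxo. Slc39a10 ranged from 10.8 to 15.6 CPM (median 13.3) in Ctrl, from 7.35 to 15.3 CPM (median 12.1) in Doxo and from 9.26 to 15.004 CPM (median 11.9) in Doxo-NMN hearts. Doxo and Ctrl hearts differed by −0.18 (SE 0.09) on the log2 scale, with 3 of 13 Doxo hearts, and likewise 5 of 13 Doxo-NMN hearts, below the lowest Ctrl heart.

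Mt3, the metallothionein best known from the brain, and Slc39a8 (ZIP8), an importer of zinc and manganese, followed the atrial marker Myl4 in Ctrl hearts. In Ctrl hearts with low Myl4, Mt3 ranged from 0.187 to 0.564 CPM (median 0.421, n = 6), and in those with high Myl4 from 2.74 to 4.98 CPM (median 3.26, n = 8). The same held for Slc39a8, which ranged from 0.828 to 1.30 CPM (median 0.963, n = 6) in the low and from 5.52 to 17.2 CPM (median 10.3, n = 8) in the high class. Neither gene overlapped between the classes of Ctrl hearts. Other markers split the same Ctrl hearts without overlap, with summed fibroblast genes (Col1a1, Pdgfra, Dcn, Lum and Tcf21) at 474 to 602 CPM in the low and 723 to 931 CPM in the high class, and adipocyte genes (Adipoq, Plin1, Cidec, Lep and Retn) at 0.0622 to 0.469 and 5.83 to 24.6 CPM. Endothelial genes (599 to 695 and 534 to 591 CPM) and cardiomyocyte genes (60881 to 65914 and 52132 to 59735 CPM) ran the other way. Which of these the levels of Mt3 and Slc39a8 go with was not tested. Over all hearts of a group, Mt3 had a log2 fold change of −1.51 (SE 0.48) for Doxo vs. Ctrl, and Slc39a8 one of 1.04 (SE 0.61), but the groups held different shares of hearts with high Myl4. For Doxo-NMN the log2 fold change of Mt3 was 0.47 (SE 0.48) vs. Doxo and −1.04 (SE 0.47) vs. Ctrl, and that of Slc39a8 was −1.07 (SE 0.62) vs. Doxo and −0.02 (SE 0.61) vs. Ctrl.

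Within the classes, the description of Mt3 and Slc39a8 changed. Among hearts with low Myl4, Mt3 ranged from 0.197 to 0.900 CPM (median 0.424, n = 8) in Doxo, and the log2 fold change of Doxo vs. Ctrl was 0.27, opposite in sign to the value over all hearts. Among hearts with high Myl4, Mt3 ranged from 0.576 to 1.83 CPM (median 1.17, n = 5) in Doxo, below all 8 Ctrl hearts of the class, with a log2 fold change of −1.53. Myl4 itself ranged from 255 to 592 CPM (median 334, n = 5) in those Doxo hearts, below the Ctrl hearts of the class, where it ranged from 796 to 1569.8 CPM (median 975, n = 8). Its part in the lower Mt3 was not tested. For Slc39a8 the log2 fold change of Doxo vs. Ctrl was 2.89 in the low and 1.13 in the high class. Slc39a8 ranged from 1.04 to 34.9 CPM (median 2.85, n = 8) in Doxo hearts with low Myl4, of which replicate 5 was highest, and from 7.44 to 35.8 CPM (median 31.6, n = 5) in those with high Myl4. In Doxo-NMN hearts it ranged from 1.10 to 6.95 CPM (median 1.66, n = 9) and from 5.64 to 26.1 CPM (median 14.9, n = 4). One Doxo heart of the low class lay near the limit, with 93.1 CPM of Myl4.

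**Figure D2:**
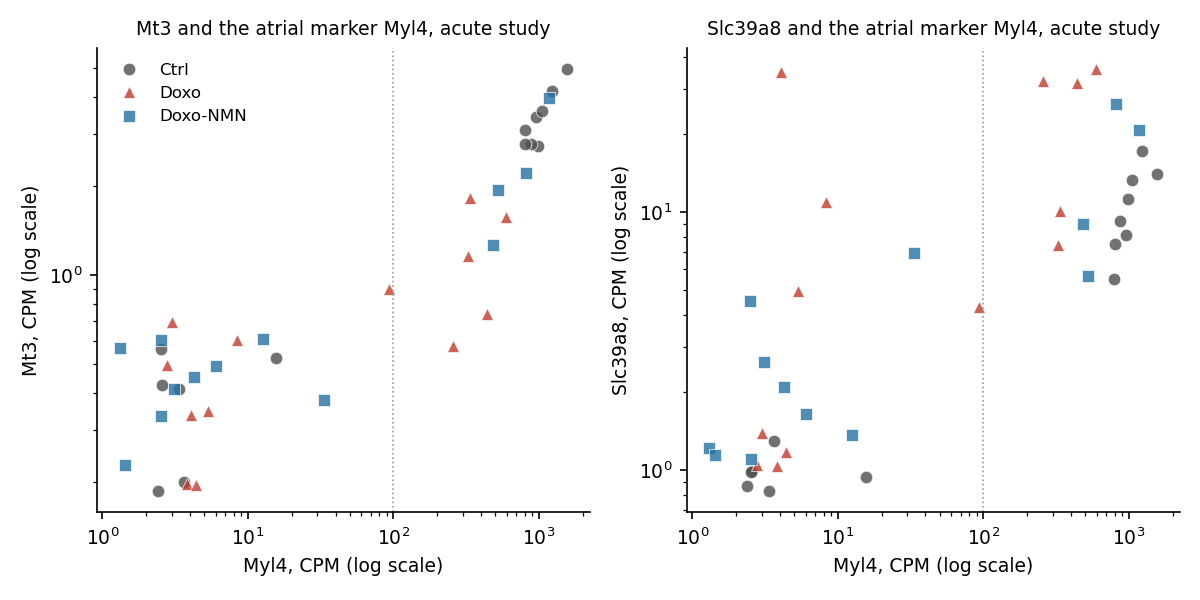
Mt3 (left) and Slc39a8 (right) against the atrial marker Myl4 in the 40 acute hearts, all in CPM on log axes, with a dotted line at 100 CPM of Myl4. In the 14 Ctrl hearts both genes are high where Myl4 is high, while some Doxo hearts have high Slc39a8 at low Myl4.

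Slc30a3 (ZnT3), which loads zinc into synaptic vesicles, was at or near the detection limit in acute hearts. It had between 0 and 10 counts in Ctrl, 0 and 10 in Doxo and 0 and 18 in Doxo-NMN hearts, and 0 counts in 3, 1 and 1 of them. The median was 0.0545 CPM in Ctrl, 0.147 in Doxo and 0.110 in Doxo-NMN hearts. The groups overlapped, and their difference was not tested, since the gene had too few counts to be fitted. Most small counts of the acute hearts were even numbers, so these counts and the limit of 3 counts may stand for fewer separate reads than in the chronic hearts, which was not tested.

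By the study's rule for the acute hearts (edgeR quasi-likelihood test, Benjamini-Hochberg adjusted p under 0.05, with a change of 1.5-fold or more), 4 of the 7 genes fitted were called in Doxo vs. Ctrl, namely Mt1, Mt2 and Slc39a14 as higher and Mt3 as lower, where 30.1% of all 14240 genes were called. In Doxo-NMN vs. Doxo, 2 of 7 were called (Mt1 and Mt2, both lower), where 17.1% of all genes were called. Slc39a14 missed that rule by its fold change (1.499-fold lower). In Doxo-NMN vs. Ctrl, 2 of 7 were called (Mt1 and Mt2, both higher), where 7.11% of all genes were called. Mt2 was no longer called there without Ctrl replicate 1, 5, 11 or 13 or Doxo-NMN replicate 8, 10 or 13 (1 of 7 called), and Mt3 was called as well, as lower, without Doxo-NMN replicate 2 (3 of 7). Within the atrial classes neither Mt1 nor Mt2 was called in this comparison, with log2 fold changes of 0.97 and 1.58 among hearts with low and 0.63 and 0.93 among hearts with high Myl4. Since the genes were chosen on these values, nothing is read from these counts.

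**Figure D3:**
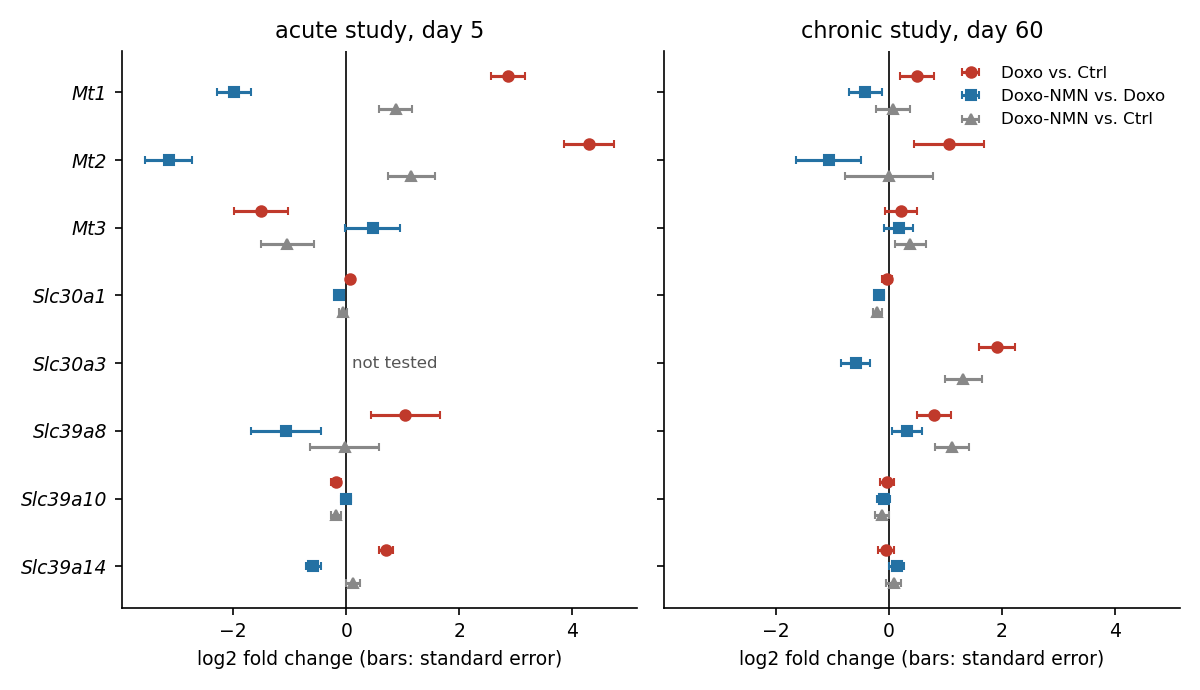
Log2 fold changes of 7 genes in acute (left, Slc30a3 not fitted) and 8 genes in chronic (right) hearts, with bars of 1 standard error, for Doxo vs. Ctrl (red circles), Doxo-NMN vs. Doxo (blue squares) and Doxo-NMN vs. Ctrl (grey triangles). Mt1 and Mt2 have the largest positive values for Doxo vs. Ctrl in the acute study (2.87 and 4.30), and Slc30a3 has the largest in the chronic study (1.91).

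At day 60 of the chronic study, Mt1 was close to the Ctrl level in 5 of 6 Doxo hearts. The 5 Ctrl hearts had 118, 54.1, 76.5, 82.0 and 78.3 CPM. The 6 Doxo hearts had 79.0, 289, 79.4, 73.7, 81.1 and 89.8 CPM, so that only replicate 2 lay above the Ctrl range. The Doxo-NMN hearts had 83.6, 84.0, 76.4, 67.7, 92.8 and 113 CPM, all within the Ctrl range. The log2 fold change of Doxo vs. Ctrl was 0.50 (SE 0.30), and it was −0.01 without Doxo replicate 2. In the same way, the value for Doxo-NMN vs. Doxo went from −0.42 to 0.09 without it.

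Mt2 rested on few counts in the chronic hearts, between 1 and 40. The Ctrl hearts had 0.436, 0.0484, 0.248, 0.266 and 1.13 CPM and the Doxo hearts 0.275, 2.30, 0.238, 0.638, 0.492 and 1.37 CPM, with 2 of 6 Doxo hearts above the highest Ctrl heart. The log2 fold change was 1.07 (SE 0.62). It became 1.82 without Ctrl replicate 5 and 0.57 without Doxo replicate 2. Doxo-NMN hearts ranged from 0.248 to 0.924 CPM (median 0.325), within the Ctrl range. The 2 genes thus showed no shift of the whole group at day 60 comparable with that of day 5, although the difference between the studies was not tested.

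Chronic Doxo replicate 2 stood apart in other genes of the set as well. It had the highest Slc39a8 (3.96 CPM) and Slc30a3 (1.09 CPM) and the lowest Slc30a1 (18.6 CPM) and Slc39a10 (7.52 CPM) of the 6 chronic Doxo hearts. The summed level of 12 glucocorticoid-induced genes was 1786 CPM in that heart and 652 to 908 CPM in the other 5. The 12 NRF2 target genes summed to 821 CPM in it and to 488 to 499.5 CPM in the others. Among cell type markers, red cell genes summed to 16.2 CPM in it and 183 to 355 CPM in the others, neutrophil genes to 8.90 CPM against 1.86 to 4.41 CPM, and endothelial genes (Pecam1, Cdh5, Kdr, Tek and Cldn5) to 566 CPM against 786 to 1110.2 CPM. The part of all these in its Mt1 level was not tested.

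Slc30a3 was the gene of the set with the clearest separation in the chronic study. The Ctrl hearts had 0.327, 0.145, 0.199, 0.266 and 0.170 CPM, which were 3 to 6 counts, and the Doxo hearts 0.606, 1.09, 0.859, 0.883, 0.935 and 0.704 CPM, which were 11 to 19 counts. All Doxo hearts were above all Ctrl hearts, with a log2 fold change of 1.91 (SE 0.32), or 3.76-fold. The Doxo-NMN hearts had 0.538, 0.412, 0.469, 0.462, 0.470 and 1.01 CPM, also all above the Ctrl hearts, and 5 of 6 were below the lowest Doxo heart. The log2 fold change was −0.59 (SE 0.26) vs. Doxo and 1.32 (SE 0.33) vs. Ctrl.

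**Figure D4:**
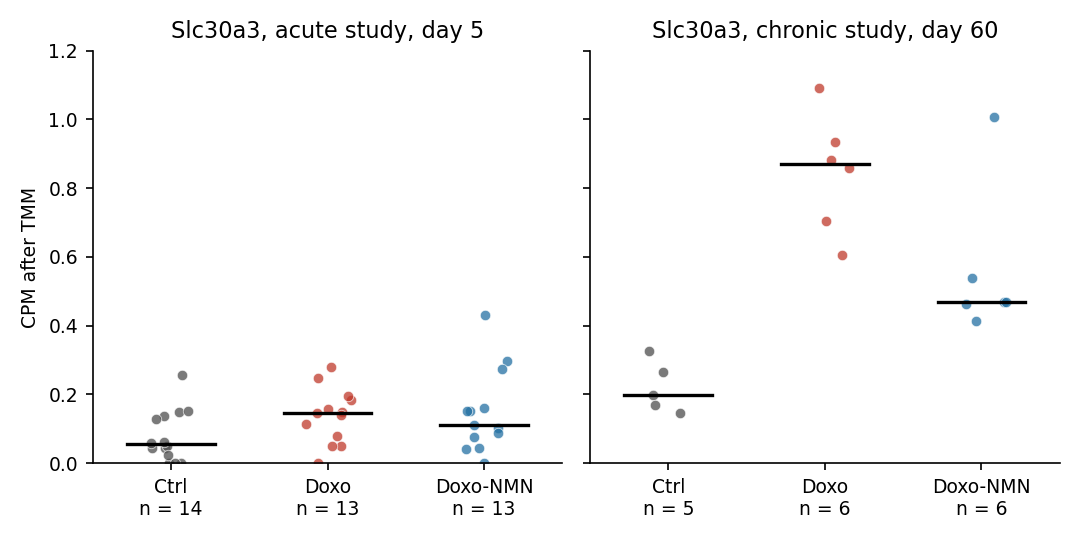
Slc30a3 in CPM, 1 point per heart, in acute (left) and chronic (right) hearts, with black lines at the group medians. In the chronic study the 6 Doxo and 6 Doxo-NMN hearts all lie above the 5 Ctrl hearts, while the acute groups overlap.

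Slc39a8 was also higher in most chronic Doxo and Doxo-NMN hearts than in Ctrl hearts, here with low Myl4 counts in all 17 hearts. The Ctrl hearts had 0.817, 1.74, 1.59, 1.01 and 1.64 CPM, the Doxo hearts 1.597, 3.96, 2.003, 1.81, 2.66 and 2.19 CPM and the Doxo-NMN hearts 3.97, 2.24, 2.49, 4.85, 1.58 and 2.54 CPM. In both groups, 5 of 6 hearts were above the highest Ctrl heart. The log2 fold change was 0.79 (SE 0.30) for Doxo vs. Ctrl and 1.11 (SE 0.30) for Doxo-NMN vs. Ctrl. The 5 atrial markers together were also higher in these hearts, at 69.1 to 205 summed CPM in Ctrl, 124 to 536 in Doxo and 192 to 292 in Doxo-NMN, and their part in Slc39a8 was not tested. Of the chronic hearts, Doxo-NMN replicate 4 had both the highest Slc39a8 and the highest Myl4 (83.8 CPM).

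The remaining genes overlapped between the chronic groups. Mt3 ranged from 0.533 to 1.17 CPM (median 0.962) in Ctrl, from 0.638 to 1.37 CPM (median 1.02) in Doxo and from 0.798 to 1.58 CPM (median 1.07) in Doxo-NMN hearts. Slc39a14 ranged from 33.4 to 60.3 CPM (median 54.5) in Ctrl, from 39.5 to 52.7 CPM (median 49.7) in Doxo and from 39.3 to 60.3 CPM (median 53.9) in Doxo-NMN hearts, with no Doxo heart outside the Ctrl range. Slc30a1 was somewhat lower with NMN, at 18.0 ± 1.75 CPM (SD, n = 6) in Doxo-NMN against 20.2 ± 1.47 CPM (SD, n = 6) in Doxo and 20.8 ± 1.03 CPM (SD, n = 5) in Ctrl hearts, and 5 of 6 Doxo-NMN hearts lay below the lowest heart of either other group. The log2 fold change of Doxo-NMN vs. Ctrl was −0.21 (SE 0.08). Slc39a10 ranged from 10.1 to 12.1 CPM (median 11.1) in Ctrl, from 7.52 to 13.4 CPM (median 11.1) in Doxo and from 8.86 to 11.97 CPM (median 9.99) in Doxo-NMN hearts, and its log2 fold changes lay between −0.12 and −0.03 in the 3 comparisons.

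By the study's rule for the chronic hearts (adjusted p under 0.05 in the same edgeR test), 1 of the 8 genes, Slc30a3, was called in Doxo vs. Ctrl, where 9 of 14960 genes (0.0602%) were called. It was not called when Ctrl replicate 2, 3 or 5 was left out. None of the 8 genes was called in Doxo-NMN vs. Doxo, where 0% of all genes were called, or in Doxo-NMN vs. Ctrl, where 6 genes (0.0401%) were called. At an unadjusted p under 0.05, 2 and 3 of the 8 genes passed in these 2 comparisons, where 2.95% and 4.73% of all genes did, and DESeq2 called 0 in either. Again the genes had been chosen on these values, and nothing is read from the counts.

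The rest of the zinc gene families was tested in the same fits. It is what remained of these families once the 8 genes had been picked by their levels, so its counts are not independent of that choice. The list holds 21 genes, namely all other Slc30a and Slc39a genes, Mt4 and Mtf1, of which 17 had enough counts in acute hearts and 15 in chronic hearts. In acute Doxo vs. Ctrl, 3 of 17 fell and none rose (17.6%, against 30.1% of all genes), and their median log2 fold change was −0.19, against −0.00157 over all genes tested. Slc30a6 (ZnT6), which works in the Golgi, fell by 0.88 (SE 0.11, adjusted p = 5.49e-09) on the log2 scale, from 8.38 ± 0.927 CPM (SD, n = 14) to 4.54 ± 1.35 CPM (SD, n = 13). The importer Slc39a2 (ZIP2) fell by 1.04 (SE 0.27, adjusted p = 0.000851), from 1.07 ± 0.306 CPM (SD, n = 14) to 0.522 ± 0.415 CPM (SD, n = 13). The importer Slc39a3 (ZIP3) fell by 0.63 (SE 0.09, adjusted p = 2.59e-07), from 19.1 ± 1.46 CPM (SD, n = 14) to 12.3 ± 3.34 CPM (SD, n = 13). Doxo replicate 6 had the highest Slc30a6 and Slc39a3 of the Doxo hearts.

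With NMN, 2 of the 17 genes rose against Doxo and none fell (17.1% of all genes were called). Slc30a6 rose by 0.68 (SE 0.11, adjusted p = 4.06e-06) and Slc39a2 by 0.84 (SE 0.27, adjusted p = 0.00953) on the log2 scale, while Slc39a3 had a log2 fold change of 0.58 (SE 0.09) with an adjusted p of 8.28e-06 but missed the fold change cutoff. None of the 17 was called in Doxo-NMN vs. Ctrl by edgeR or DESeq2, and 3 had an unadjusted p under 0.05, as had 37.8% of all genes. Mtf1, the zinc sensor that drives metallothionein transcription, did not meet the fold change cutoff in any comparison. Its level was 21.3 ± 1.45 CPM (SD, n = 14) in Ctrl, 16.9 ± 2.81 CPM (SD, n = 13) in Doxo and 20.5 ± 1.89 CPM (SD, n = 13) in Doxo-NMN hearts, with a log2 fold change of −0.33 (SE 0.06) and an adjusted p of 1.71e-05 for Doxo vs. Ctrl. Without the fold change cutoff, 10 of the 17 genes passed in Doxo vs. Ctrl, where 68.1% of all genes did, and 8 in Doxo-NMN vs. Doxo, where 53% did. In the chronic study none of the 15 genes was called in any comparison by edgeR or DESeq2, and none had an unadjusted p under 0.05.

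**Figure D5:**
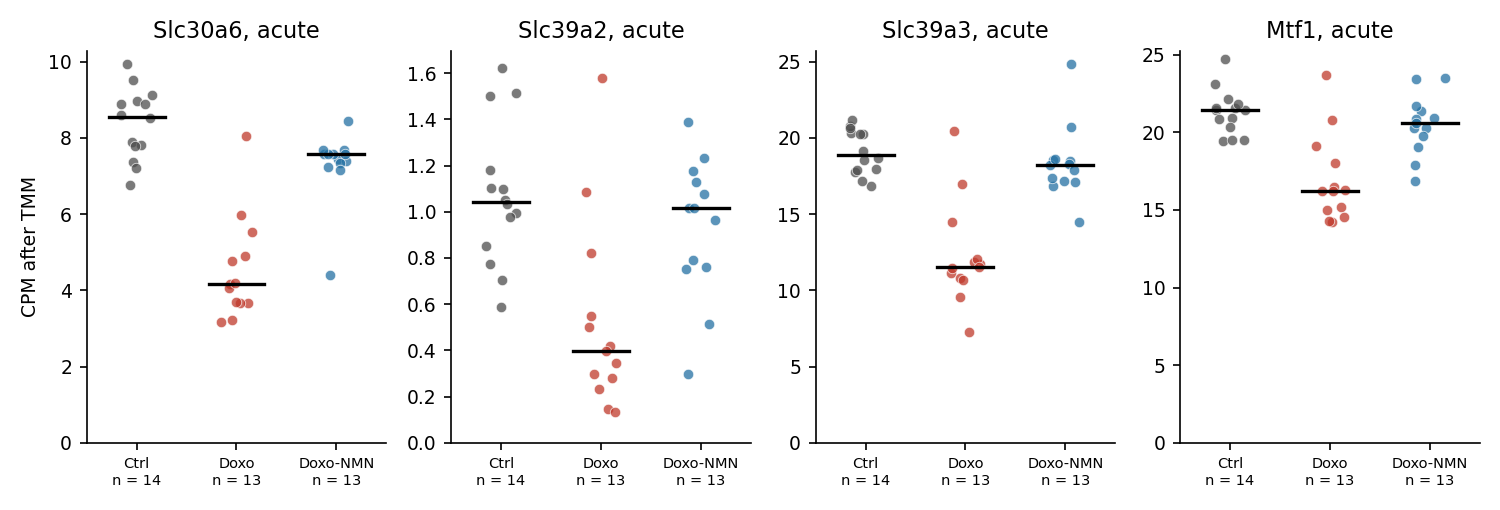
Slc30a6, Slc39a2, Slc39a3 and Mtf1 in CPM in the acute study, 1 point per heart on an axis from 0, with black lines at the group medians. The Doxo medians (4.16, 0.398, 11.5 and 16.2 CPM) lie below the Ctrl medians (8.56, 1.04, 18.9 and 21.4 CPM).

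Neighbouring genes were tested to see what else was measured at each locus. Of 24 flanking genes (the nearest 2 protein-coding genes on each side that were tested), 13 were called in acute Doxo vs. Ctrl (8 rose and 5 fell), 6 in Doxo-NMN vs. Doxo and 4 in Doxo-NMN vs. Ctrl, where 30.1%, 17.1% and 7.11% of all genes were called. None was called in the chronic study by edgeR, nor by DESeq2 in Doxo vs. Ctrl. On either side of the metallothionein cluster, Bbs2, a ciliary gene, rose by 0.73 (SE 0.09, adjusted p = 1.93e-08) and Nup93, a nuclear pore gene, by 0.62 (SE 0.06, adjusted p = 1.38e-10) on the log2 scale, both far less than Mt1. Herpud1, a gene of the endoplasmic reticulum stress response about 206 kb beyond Mt1, rose by 0.96 and stayed called in Doxo-NMN vs. Ctrl at 0.95. Around Slc39a14, Sorbs3 and Piwil2 rose by 0.93 and 1.84 in Doxo vs. Ctrl and had log2 fold changes of −0.75 and −1.09 in Doxo-NMN vs. Doxo, both called. Around Slc30a3, Atraid, Trim54 and Ucn rose (0.67, 1.34 and 0.74) and Cad fell (−0.74). Around Slc39a8, Manba and Bank1 fell (−0.89 and −1.88), and near Slc39a10 and Slc30a1 the iron exporter Slc40a1 and Ints7 fell (−1.03 and −0.70).

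Many genes of 3 known inducers of metallothioneins were also called in acute hearts, where 30.1% of all genes were called in Doxo vs. Ctrl and 17.1% in Doxo-NMN vs. Doxo. These lists were chosen with earlier results of these data known. Their counts are therefore a description and not evidence for these inducers. Of 11 genes of the STAT3 acute phase response tested, 10 rose in Doxo vs. Ctrl (Socs3 4.30, Stat3 1.498 and Osmr 2.18 on the log2 scale) and 10 fell in Doxo-NMN vs. Doxo. Of 12 NRF2 target genes, 9 rose (Nqo1 2.68, Hmox1 3.17 and Gclm 2.01) and 9 fell with NMN. Of 12 glucocorticoid-induced genes, 8 rose (Fkbp5 1.58, Per1 2.98 and Sgk1 0.80) and 7 fell with NMN. The summed level of the 12 listed STAT3 genes had medians of 314, 1253 and 362 CPM in Ctrl, Doxo and Doxo-NMN hearts. For the NRF2 genes these were 574, 1134 and 684 CPM. For the glucocorticoid-induced genes they were 1891, 1925 and 1242 CPM. The median log2 fold changes for Doxo vs. Ctrl were 1.92 (STAT3), 1.57 (NRF2) and 0.89 (glucocorticoid). The part of these genes in the metallothionein levels was not tested. In the chronic study none of these genes was called in any comparison by edgeR, with 0, 1 and 4 of 10, 11 and 12 genes at an unadjusted p under 0.05 in Doxo vs. Ctrl, where 7.85% of all genes were.

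Among acute hearts of the same group, Mt1 and Mt2 varied together. With group means of the log2 CPM removed, Pearson's r between them was 0.58 over the 14 Ctrl hearts and 0.73 over the 13 Doxo-NMN hearts. The 13 Doxo hearts were also cut into 2 sets at the widest gap of their log2 Mt1 level. Within these sets, r was 0.95 over the lower 6 and 0.90 over the upper 7. Over all 13 Doxo hearts it was 0.99. Such a cut always yields 2 sets, so it does not show clustering, and it narrows the range of Mt1 within each. The lower set holds another gap, from 99.1 CPM in replicate 6 to 200 CPM in the next heart. All values for the lower 6 include Doxo replicate 6, the heart at the Ctrl level, and r without it was not computed. In the chronic study they did so less evenly, with r = 0.57 over the 5 Ctrl, 0.77 over the 6 Doxo and −0.45 over the 6 Doxo-NMN hearts, and 0.56 over all 17 hearts (0.31 without the 2 farthest from the median). Slc39a14 followed Mt1 less evenly. Its r with Mt1 was 0.32 in Ctrl, −0.05 in Doxo-NMN, −0.36 in the lower and 0.81 in the upper Doxo hearts. Over all 13 Doxo hearts it was 0.89, and over all 40 acute hearts 0.76 (0.73 without the 2 farthest from the median). For Slc39a10, r with Mt1 was −0.77, −0.65, −0.56 and 0.48 in the same order, 0.39 over the 13 Doxo hearts and 0.10 over the 40. Slc39a10 was thus lower where Mt1 was higher within Ctrl, Doxo-NMN and lower Doxo hearts, but not over all Doxo hearts. These values and those that follow are descriptions over few hearts, which share library, depth and dissection.

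The genes most like the mean of Mt1 and Mt2 over the 40 acute hearts, with group means removed, were Gcnt2, Stat3, Slc10a6, Zfp697, Rpl34 and Sbno2, with r between 0.93 and 0.94 (Spearman's rho 0.85 to 0.90). Without the 2 hearts farthest from the median, r was 0.89 to 0.91. Within groups it was 0.34 to 0.63 in Ctrl, 0.84 to 0.95 in Doxo-NMN, 0.88 to 0.99 in the lower and 0.65 to 0.87 in the upper Doxo hearts. Stat3, the transcription factor of interleukin 6 signalling, had 157, 443 and 194 CPM on average in Ctrl, Doxo and Doxo-NMN hearts, and Slc10a6, a carrier of sulfated steroids, had 4.09, 91.3 and 10.9 CPM. Reads of Rpl34, a ribosomal protein gene with near-identical copies in the genome, may be split among them, so its level is uncertain. Over the 17 chronic hearts, r with Mt1 and Mt2 was −0.20 for Stat3 and 0.70 for Slc10a6.

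The mean log2 CPM of the 11 STAT3 acute phase genes, of which Stat3 is 1, followed that of Mt1 and Mt2 in all 4 sets of acute hearts, with r = 0.50 in Ctrl, 0.89 in Doxo-NMN, 0.94 in the lower and 0.87 in the upper Doxo hearts. For the 12 NRF2 target genes these were 0.44, 0.90, 0.75 and 0.84. For the 12 glucocorticoid-induced genes they were 0.52, 0.74, 0.94 and −0.45, so that the last of the 4 sets ran the other way. Over all 13 Doxo hearts, r was 0.98 for the STAT3, 0.90 for the NRF2 and 0.79 for the glucocorticoid genes. For comparison, the 17 other zinc genes had 0.55, −0.13, −0.73 and 0.41 in the 4 sets, and the 5 atrial markers 0.47, 0.18, 0.57 and −0.53. In Ctrl hearts these came close to the values of the inducer genes. Neutrophil markers (S100a8, S100a9, Retnlg, Csf3r and Mmp8) also differed between the groups, with sums of 1.59 to 5.35 CPM in Ctrl, 2.84 to 275 CPM in Doxo and 4.89 to 31.9 CPM in Doxo-NMN hearts, and macrophage markers (Adgre1, Cd68, Csf1r, C1qa and Lyz2) sums of 182 to 267, 54.4 to 220.2 and 128 to 255 CPM. The part of these cells in the metallothionein levels was not tested.

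Mt3 and Slc39a8 were most like genes that also followed the atrial classes, so r is given within the 23 hearts with low and the 17 with high Myl4. For Mt3 the 3 genes were Plvap (0.72 and 0.82), Stard10 (0.72 and 0.68) and Cilp2 (0.65 and 0.86). For Slc39a8 they were Aebp1 (0.91 and 0.94), Chrdl1 (0.84 and 0.85) and Tat (0.90 and 0.74). Between Mt3 and Slc39a8 themselves, r was 0.34 in the low and 0.11 in the high class, and over the 17 chronic hearts it was −0.12. Over the 40 hearts, Slc39a14 was most like Timeless, Neu1 and Ccnyl1 (r = 0.91, 0.87 and 0.87, and −0.51, −0.22 and −0.29 over the chronic hearts). Slc30a1 was most like Pik3r6, Hinfp and Ankib1 (r = 0.70, 0.69 and 0.65), and Slc39a10 most like Cmah, Clec4n and Gopc (r = 0.76, 0.74 and 0.71). Over the Ctrl hearts, r in the same order was 0.71, 0.62 and 0.63, then 0.47, 0.15 and 0.57, then 0.11, 0.62 and 0.65. It was 0.73 to 0.96 over all Doxo and 0.61 to 0.92 over Doxo-NMN hearts. In the lower 6 Doxo hearts, r with Slc39a14 was 0.43, 0.44 and 0.11.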

How the data were processed

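Heart RNA of 40 acute and 17 chronic mice was measured by poly(A) RNA-seq. The authors mapped single-end reads to mouse mm10 with STAR (2.7.3a in the submitters' processing notes) and counted them per gene with featureCounts 2.0.0. The deposited values are these raw counts, without normalization. Hearts were grouped by their labels. In each study the 3 groups were fitted together in R 4.3.3 with edgeR 4.0.16 (filterByExpr, TMM, quasi-likelihood test, Benjamini-Hochberg adjustment), following the study's methods, with a 1.5-fold cutoff in the acute study. CPM values use TMM library sizes, log2 CPM a prior count of 2. Among counts from 1 to 20, a median of 73.6% were even in acute and 40.3% in chronic hearts. Nothing says that replicates share litters or batches.

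Alternatives were RLE factors, DESeq2 1.42.0, other filters, pairwise fits, halved acute counts, hearts of 1 atrial class, the replicate number as a block, and leaving out each heart. The code was checked on simulated data, and no 2 hearts of the same group had repeated counts. Hearts of different groups were not compared in this way. The 8 genes and all lists were chosen with earlier results of these data known. Named are the 8 genes, other zinc genes called anywhere, Mtf1, called flanking genes, Bbs2 and Nup93, the 6 genes most correlated with Mt1 and Mt2 and the 3 most correlated with each other member, and up to 3 examples of each other list. Positions come from GENCODE M21 and promoters from RefSeq (GRCm38.p6, 7 of the 8 genes matched). Figures were drawn with matplotlib 3.10.9. The summed level of neuron and glia markers is not reported here.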

Additional observations from a re-analysis of the deposited data

Results flagged for a closer look

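A Dixon test of the highest and lowest heart was applied to each of the 8 genes in the 3 chronic groups, 24 in all, where chance alone would mark about 1 in 20. It marked 4 hearts. Mt1 in chronic Doxo replicate 2 was 289 CPM, and the next Doxo heart had 89.8 CPM. Mt2 in chronic Doxo-NMN replicate 4 was 0.924 CPM, with 0.431 CPM in the next heart, and Slc30a1 in chronic Doxo-NMN replicate 1 was 21.4 CPM, with 18.0 CPM in the next. Slc30a3 in chronic Doxo-NMN replicate 6 was 1.01 CPM, with 0.538 CPM in the next, and it was the only Doxo-NMN heart within the range of the Doxo hearts. The causes were not tested.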

How the results depend on the processing

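The log2 fold changes of the 8 genes kept their sign where they were called, except that Mt3 in acute Doxo vs. Ctrl went from −1.51 to 0.27 among hearts with low Myl4. Of the 8 genes, the number called in acute Doxo-NMN vs. Doxo was 2, and 4 among hearts with low Myl4, where Slc39a8 and Slc39a14 were called as well. In acute Doxo-NMN vs. Ctrl it was 2, but 1 with halved counts and 0 within either atrial class, with log2 fold changes of Mt1 and Mt2 still above 0, and 1 to 3 when any 1 heart was left out. In chronic Doxo vs. Ctrl it was 1, but 0 with at least 10 counts in every heart (Slc30a3 is then not tested) and 0 to 1 when any 1 heart was left out. At an unadjusted p under 0.05 it was 2 in chronic Doxo vs. Ctrl, 2 in Doxo-NMN vs. Doxo and 3 in Doxo-NMN vs. Ctrl, where 7.85%, 2.95% and 4.73% of all genes passed. Of the other zinc genes, the number called without a fold change cutoff was 10 in acute Doxo vs. Ctrl (3 with it) and 8 in Doxo-NMN vs. Doxo (2 with it), where 68.1% and 53% of all genes passed. In the latter comparison it was 1 with at least 10 counts in every heart and 1 among hearts with high Myl4, and in acute Doxo-NMN vs. Ctrl it was 1 without a low-count filter.

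Groups share replicate numbers, but same-numbered hearts did not deviate together (correlations from −0.62 to 0.58 in the acute and −0.25 to 0.41 in the chronic study, and 5 of 78 and 4 of 32 correlated best with their own number). With the number as a replicate block, 1 of the 8 genes was called in acute Doxo-NMN vs. Ctrl and 0 in chronic Doxo vs. Ctrl. DESeq2 called 24 genes in chronic Doxo vs. Ctrl, where edgeR called 9. The causes were not tested. Slc30a3 and chronic Mt2 rest on few counts, which limits both.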
